A study of Mus musculus with 12 samples.

Results

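The genes described here encode the laminin chains, the proteins that link laminin to the rest of the basal lamina, and the integrins, dystroglycan and MEGF10 on the surface of the cells attached to it. Members were chosen by symbol among protein-coding genes: the laminin chains (Lama, Lamb and Lamc), the integrin α and β genes except Itga7, the nidogens Nid1 and Nid2, and Hspg2, Dag1, Agrn, Fn1 and Megf10. The rule found 46 of the 25093 genes in the count table. It also takes 3 genes that are named after integrins but encode proteins binding their tails or other partners, Itgb1bp1, Itgb1bp2 and Itgb3bp. The rule reads symbols and gene type and no measured value, although it was written with earlier results of these data known. Itga7 was left out because its protein was a sort marker.

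The study asked what GLI3, a transcription factor of the Hedgehog pathway, does in satellite cells, the stem cells of skeletal muscle. All mice were 3 to 4 months old, carried the Pax7-CreERT2/+ and R26R-YFP alleles, were given tamoxifen and were either Gli3+/+ or Gli3fl/fl, and the latter are called Gli3∆/∆. Quiescent satellite cells (QSCs) were sorted from uninjured hindlimb muscle as α7-integrin+ and CD34+, and activated satellite cells (ASCs) were sorted as α7-integrin+ and VCAM1+ 3 days after cardiotoxin injury. There were 3 libraries of each genotype in each state, with 2 to 3 mice pooled per QSC library and 1 mouse per ASC library. The Cre is expressed from the Pax7 locus, so that deletion of exon 8 of Gli3 is limited to cells that have expressed Pax7, and any other cell in the sort keeps an intact Gli3. By the study's methods, cells with CD31, CD45, SCA1 or CD11b on their surface were gated out of both sorts, proteins that mark endothelial cells (CD31), blood cells (CD45 and CD11b) and, among others, fibro-adipogenic cells (SCA1). Library-level counts were analysed for the 6 QSC libraries. ASCs enter only through the authors' mean over all 12 libraries.

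Satellite cells lie between the plasma membrane of a muscle fibre and the basal lamina around it. Each laminin is a trimer of an α, a β and a γ chain, which polymerizes into a sheet that nidogens and the proteoglycans perlecan and agrin tie to the collagen network. Cells hold on to this sheet through integrins, which are α and β subunit pairs, and through dystroglycan, whose sugar chains bind laminin and whose membrane-spanning part connects to the cytoskeleton through dystrophin.

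The QSC libraries held 39556784 to 65750131 estimated counts, and their correlation on the log2 scale was 0.971 to 0.987 within a genotype and 0.962 to 0.979 between genotypes. Values below are CPM, counts scaled to library size with edgeR's TMM factors, in the order of replicates 1, 2 and 3. The 7 myogenic markers summed to 4508 to 4952 CPM, and Pax7 itself to 798 to 1157 CPM. Of the 7, 4 had a log2 fold change below 0. Only Cdh15 had groups without overlap, higher in Gli3∆/∆ (log2 fold change 0.46, SE 0.18, edgeR adjusted p = 0.648). That is 14.3% of the 7 beside 13.0% of all genes. Gli3 was counted at 11.2, 9.71 and 9.75 CPM in Gli3+/+ and at 9.54, 10.5 and 6.25 CPM in Gli3∆/∆ libraries (log2 fold change −0.22, SE 0.22, edgeR adjusted p = 0.916). A count over the whole gene does not separate transcripts that lack exon 8, so it does not check the deletion. The sort markers Itga7 (log2 fold change −0.05), Cd34 (−0.31) and Vcam1 (−0.04) had unadjusted edgeR p-values above 0.05. Markers of other cells were present. The 6 Schwann cell markers summed to 70.9 to 104 CPM in Gli3+/+ and 34.2 to 50.04 CPM in Gli3∆/∆ libraries, with all 6 lower and no overlap in any of them. The 6 mural cell markers summed to 246 to 494 against 229 to 277 CPM, and 5 of the 6 had a lower mean in Gli3∆/∆. The ranges overlapped for the macrophage markers (11.8 to 26.6 against 10.7 to 16.4 CPM), the endothelial markers (157 to 216 against 135 to 165 CPM, with 5 of 6 means lower in Gli3∆/∆) and the fibro-adipogenic markers (550 to 887 against 680 to 799 CPM). The 6 myofiber markers summed to 45.0 to 60.03 CPM in Gli3+/+ and 49.3 to 72.3 CPM in Gli3∆/∆, with 5 of 6 log2 fold changes above 0 and no overlap in Myh1 (0.43) and Mylpf (0.45). Library 1 of Gli3+/+ alone held the platelet gene Ppbp, at 3.48 CPM, and library 3 of Gli3+/+ stood apart for several genes, among them Vcam1 (952 CPM) and Acta2 (347 CPM). In bulk RNA, fewer cells of a type and less RNA per cell cannot be told apart.

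Of the 46 genes, 36 had a mean of at least 1 CPM over the QSC libraries and 38 had at least 10 counts in every library. To compare genes with each other, CPM were divided by the length of the gene's exons, which gives CPM per kb. On that scale Dag1, the gene of dystroglycan, stood first in QSCs at a mean of 241 CPM per kb. Next came Itgb1, the β subunit that most integrin α subunits pair with, at 144 CPM per kb, Lamc1, the γ chain of most laminins, at 117 CPM per kb, and Hspg2, which encodes perlecan, at 114 CPM per kb. Lamb2 (50.1 CPM per kb), Lama2 (45.8 CPM per kb), the α chain of the main muscle laminin, and the engulfment receptor Megf10 (44.4 CPM per kb) formed a further group. Apart from Itga7, which is no member and stood at 56.4 CPM per kb, the highest integrin α subunits were far lower, with Itga8 at 9.13, Itga5 at 8.43 and Itgav at 5.93 CPM per kb. All 3 pair with β subunits to bind ligands that carry the RGD sequence, such as fibronectin and nephronectin. The mean of Itga5 was raised by library 3 of Gli3+/+, at 21.0 CPM per kb. Itga5 ran from 5.18 to 7.39 CPM per kb in the other libraries, and Itgav from 5.35 to 6.97 CPM per kb in all. The remaining laminin-binding α subunits, Itga3 and Itga6, reached 2.62 and 2.27 CPM per kb.

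**Figure D1:**
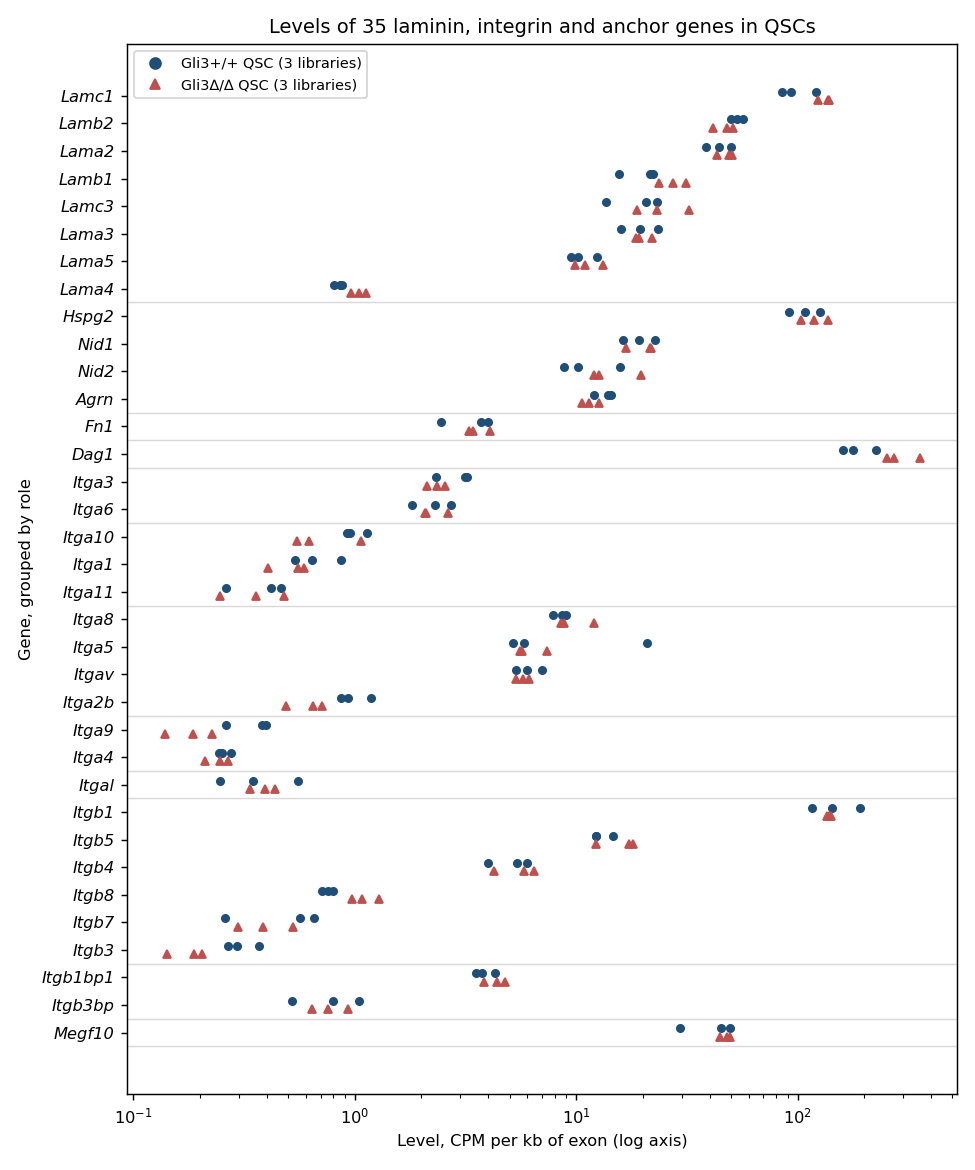
Levels of 35 members with a mean of at least 1 CPM in QSCs, grouped by role, as CPM per kb of exon on a log axis, with each library as a point (circles Gli3+/+, triangles Gli3∆/∆). Dag1 has the highest mean, 241 CPM per kb, and Itgb3 (0.244), Itga4 (0.249) and Itga9 (0.265) are among the lowest.

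Among the laminin chains, Lama2 made up 58.6% ± 4.00 (SD, n = 3) of the summed α chains per length in Gli3+/+ libraries. Lama3, best known from epithelial laminins, made up 26.1% ± 5.22 and Lama5 14.2% ± 1.35, while Lama4, a chain of vessel and nerve laminins, made up 1.13% ± 0.118 (SD, n = 3 each). Lama1 was near 0, with 0 counts in 3 of the 6 libraries and at most 0.0895 CPM. Of the γ chains, Lamc1 supplied 83.1% ± 4.52 and Lamc3 16.1% ± 4.53 (SD, n = 3 each). These shares describe transcripts and do not say which chains are assembled.

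No member passed the test for a difference between genotypes in QSCs. By edgeR's quasi-likelihood test, 0 of 46 met both thresholds (a fold of at least 1.2 with an adjusted p below 0.05), beside 88 of all 25093 genes, 0.351%. At an unadjusted p under 0.05 there were 8 members, which is 17.4% of the list beside 7.11% of all genes. Of these, 5 were higher and 3 lower in Gli3∆/∆, where the same count over all genes came to 3.20% higher and 3.91% lower. DESeq2 and limma-voom also called 0 members, with 8 and 9 at an unadjusted p under 0.05. The lowest adjusted p of a member was 0.388 by edgeR, 0.0883 by DESeq2 and 0.215 by limma-voom. The 3 libraries of each genotype did not overlap in 9 members, 19.6%, beside 13.0% of all genes. The 6 of them that lay higher in Gli3∆/∆ (6.39% of all genes did) included Dag1, Lamb1, Lamc1, Lama4 and Itgb8, and the 3 that lay lower (6.57% of all genes) were Itga9, Itgb3 and Itga2b. The log2 fold change was above 0 in 22 members, beside 45.0% of all genes, and below 0 in 24, and its median was −0.01 beside −0.03 over all genes. Labels do not say more about the replicates than that they are separate samples, and the p-values measure the spread between these libraries.

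**Figure D2:**
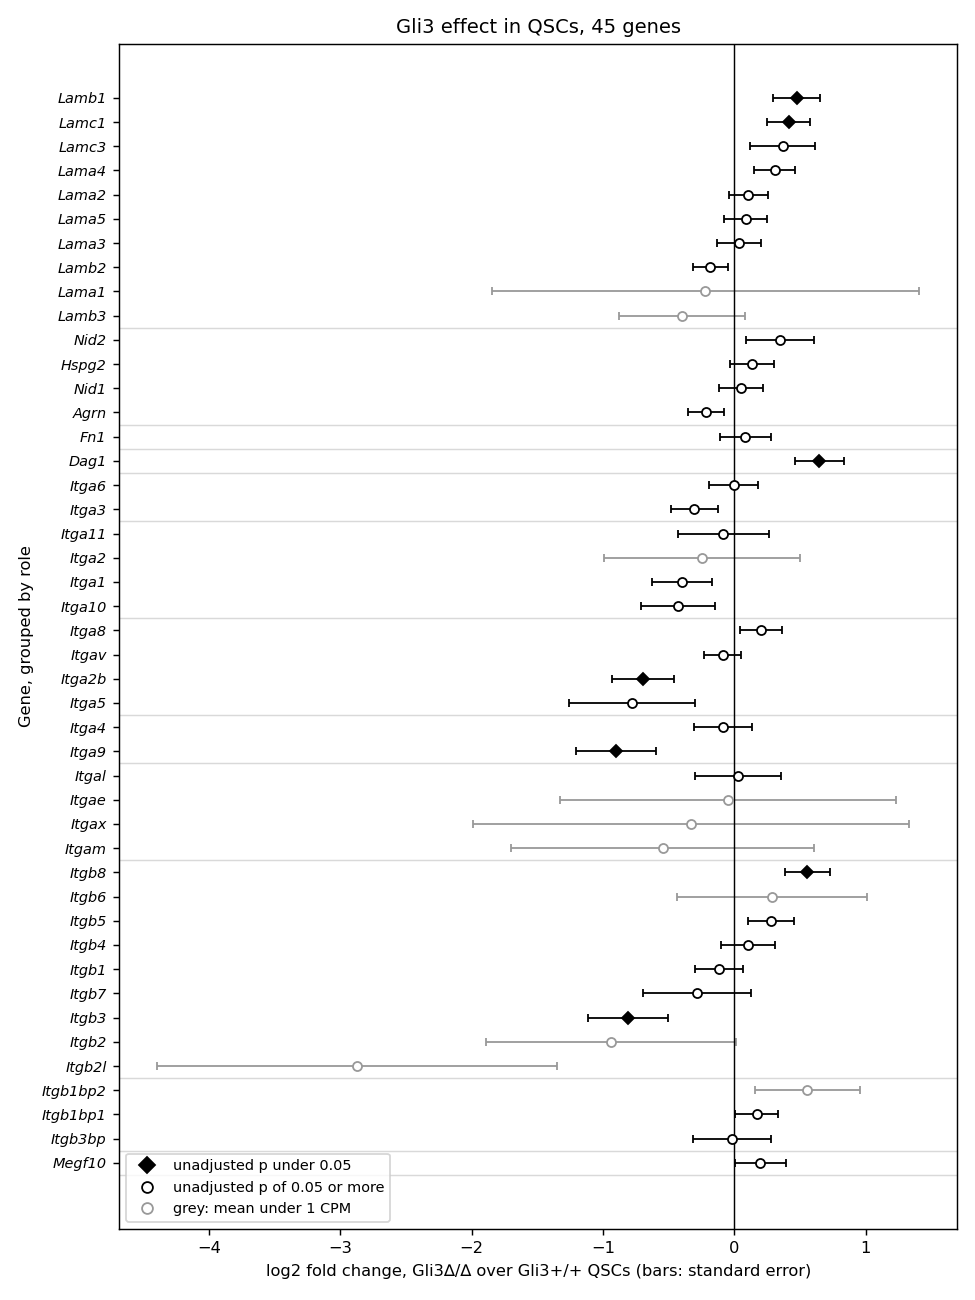
Log2 fold change (Gli3∆/∆ over Gli3+/+, QSCs) of 45 members, grouped by role, with the standard error from edgeR as bars, filled diamonds for an unadjusted p under 0.05 and grey for a mean under 1 CPM. Dag1 is the member with the lowest adjusted p, 0.388, and the integrin α subunits lie mostly below 0.

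Dag1 (chr9:108204634-108263958 of GRCm38) was counted at 1437, 1014 and 1133 CPM in Gli3+/+ and at 1735, 2261 and 1613 CPM in Gli3∆/∆ libraries. All 3 Gli3∆/∆ values exceeded the highest Gli3+/+ value. The log2 fold change was 0.65 (SE 0.19, 95% confidence interval 0.23 to 1.07, edgeR adjusted p = 0.388). Leaving out 1 library at a time gave log2 fold changes of 0.49 to 0.80. The myofiber markers leaned in the same direction, and their part in this difference was not tested.

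The laminin chains leaned upward in sign, with 8 of 11 above 0, 72.7% beside 45.0% of all genes. Their median log2 fold change was 0.11. Of the 11, 3 had an unadjusted p under 0.05, 27.3% beside 7.11% of all genes, and no chain was called. In 4 of the 11 the groups did not overlap, 36.4% beside 13.0% of all genes. Lamb1 (chr12:31265234-31329644), a β chain of widely expressed laminins, was counted at 220, 155 and 213 CPM in Gli3+/+ and 234, 309 and 272 CPM in Gli3∆/∆. The groups were separate, with the closest pair 220 against 234 CPM (log2 fold change 0.47, SE 0.18, edgeR adjusted p = 0.596). Lamc1 (chr1:153218922-153332786) had 773, 706 and 1002 CPM in Gli3+/+ against 1151, 1135 and 1017 CPM in Gli3∆/∆. Its groups nearly met, since library 3 of Gli3+/+ was only slightly below the lowest Gli3∆/∆ library (log2 fold change 0.41, SE 0.16, edgeR adjusted p = 0.633). Lama4 (chr10:38965515-39110188) had 10.6, 10.3 and 9.68 against 13.6, 12.6 and 11.6 CPM. Its libraries were separate as well (log2 fold change 0.31, SE 0.16, edgeR adjusted p = 0.770). Lama2, the most abundant α chain, had 717, 631 and 815 against 823, 798 and 709 CPM, and its groups overlapped (log2 fold change 0.11, 95% confidence interval −0.22 to 0.44). Lama3 (0.03) and Lama5 (0.09) had log2 fold changes near 0, Lamc3 had 0.37 (SE 0.25), and Lamb2 lay below 0 at −0.18 (SE 0.14).

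**Figure D3:**
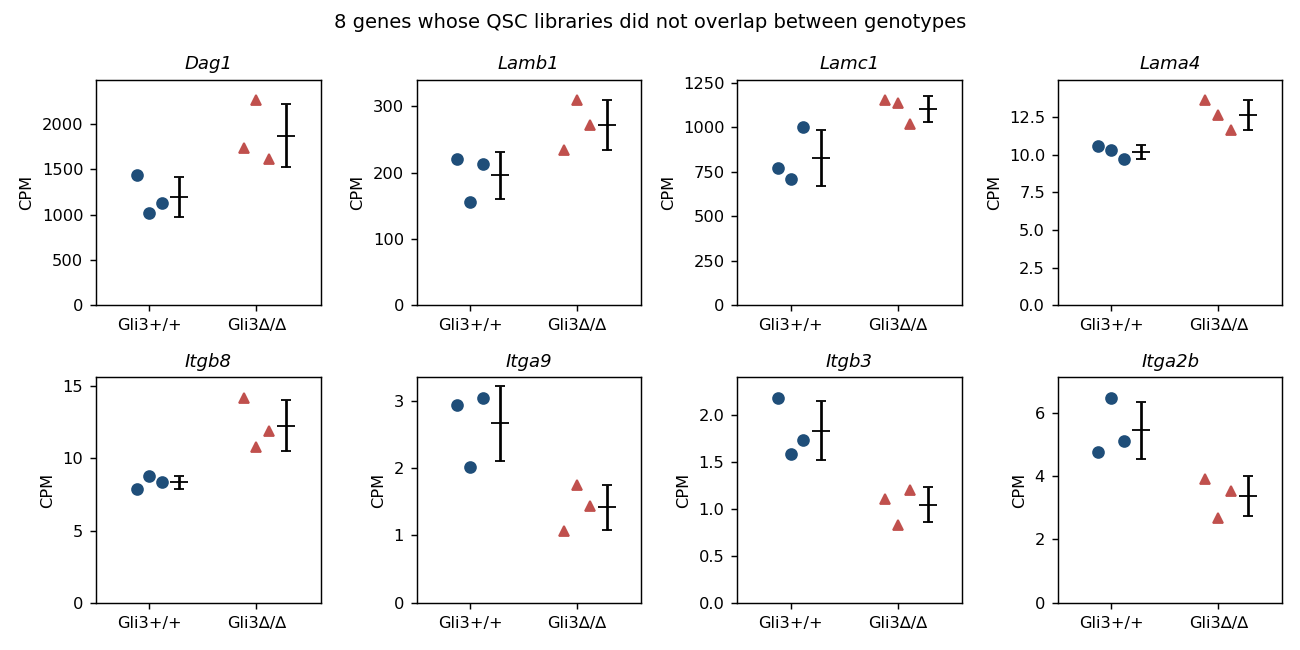
CPM of 8 members whose groups do not overlap, with each QSC library as a point (circles Gli3+/+, triangles Gli3∆/∆), the group mean as a line and the SD as a bar. Dag1 libraries of Gli3+/+ lie between 1014 and 1437 CPM and those of Gli3∆/∆ between 1613 and 2261 CPM.

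The composition of the laminins and integrins was compared per length, over 24 measures of both families, with an exact two-sided permutation test whose smallest possible p for 3 against 3 libraries is 0.1. Lamb1 made up 30.6%, 21.6% and 28.8% of the summed β chains in Gli3+/+ libraries and 36.1%, 39.3% and 35.0% in Gli3∆/∆ libraries. Its share was thus 27.0% ± 4.73 against 36.8% ± 2.20 (SD, n = 3 each, exact p = 0.1, 0.6 after Benjamini-Hochberg adjustment). The summed β chains themselves were alike at 73.1 ± 1.25 and 74.4 ± 7.87 CPM per kb (SD, n = 3 each, exact p = 0.9). The summed γ chains were 108, 110 and 143 CPM per kb in Gli3+/+ and 173, 162 and 143 CPM per kb in Gli3∆/∆, with means of 120 ± 19.7 and 159 ± 14.9 (SD, n = 3 each, exact p = 0.1, adjusted 0.6). Library 3 of each genotype came to nearly the same value. The α chains summed to 75.2 ± 5.93 and 79.9 ± 6.03 CPM per kb (SD, n = 3 each, exact p = 0.4), and the share of Lama2 among them was 58.6% and 59.5% (exact p = 0.7).

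**Figure D4:**
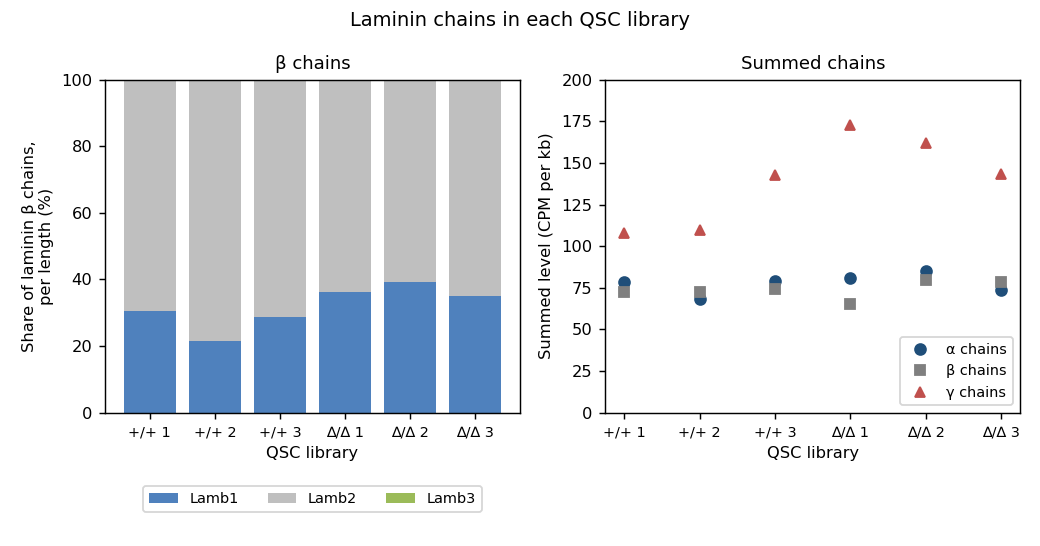
Laminin chains in each QSC library, as the share of each β chain in the summed β chains per length (left, percent) and as the summed α, β and γ chains (right, CPM per kb). The Lamb1 share is 21.6% to 30.6% in Gli3+/+ and 35.0% to 39.3% in Gli3∆/∆, and Lamb3 is too low to be seen.

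None of the 4 linker genes had an unadjusted p under 0.05. Hspg2 was counted at 1548, 1313 and 1802 CPM in Gli3+/+ and 1700, 1952 and 1476 CPM in Gli3∆/∆ (log2 fold change 0.14, SE 0.17). The nidogens Nid1 and Nid2, which join laminin to collagen, had log2 fold changes of 0.05 (SE 0.17) and 0.35 (SE 0.26). Agrn, which encodes the laminin-binding proteoglycan agrin, had −0.22 (SE 0.13). The groups of all 4 genes overlapped, as did those of Fn1, the gene of fibronectin (0.08, SE 0.20). Megf10, an engulfment receptor of satellite cells, was at 383, 347 and 227 against 344, 371 and 382 CPM, with library 3 of Gli3+/+ the lowest (log2 fold change 0.20, SE 0.19, edgeR adjusted p = 0.915).

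The integrin α subunits leaned the other way in sign. Of 16 genes, 14 had a log2 fold change below 0, with a median of −0.28, and only Itga8 (0.20) and Itgal (0.03) lay above. Over all genes 45.0% lay above 0. The 14 include Itgae, Itgax, Itgam and Itga2, with means under 1 CPM and SEs of 0.75 to 1.66, whose signs are uncertain. They also include Itga5, whose sign rested on 1 library. The median absolute log2 fold change of the 16 was 0.28, beside 0.25 over all genes. An unadjusted p under 0.05 was found in 2 of the 16, 12.5% beside 7.11% of all genes. Itga9 (chr9:118606690-118901003), a receptor for tenascin and osteopontin, was counted at 2.93, 2.02 and 3.04 CPM in Gli3+/+ and 1.07, 1.75 and 1.44 CPM in Gli3∆/∆. The groups were separate at a low level (log2 fold change −0.90, SE 0.31, edgeR adjusted p = 0.506). Itga2b (chr11:102453297-102470122), which with Itgb3 forms the fibrinogen receptor of platelets, had 4.74, 6.46 and 5.11 against 3.89, 2.67 and 3.52 CPM. All Gli3+/+ libraries were higher (log2 fold change −0.70, SE 0.24, edgeR adjusted p = 0.526). Its partner Itgb3 (chr11:104608000-104670476), also the partner of Itgav, had 2.19, 1.59 and 1.74 against 1.11, 0.836 and 1.2 CPM, again without overlap (log2 fold change −0.81, SE 0.30, edgeR adjusted p = 0.599). Of 4 listed platelet markers 2 were measured, and their signal lay almost wholly in library 1 of Gli3+/+ (5.36 CPM summed, at most 0.153 CPM in each other library). Without that library the log2 fold change was −0.79 for Itga2b and −0.67 for Itgb3. The part of platelets in these differences was not tested. The Schwann cell markers, lower in Gli3∆/∆ without overlap, and the mural and endothelial markers, most of them with lower means but with summed ranges that overlapped, leaned in the same direction as Itga9, Itga2b and Itgb3, and their part in these differences was not tested.

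Itga5, the α subunit of the classical fibronectin receptor, rested on 1 library. It was counted at 25.6, 28.7 and 103 CPM in Gli3+/+ and 36.4, 28 and 27.4 CPM in Gli3∆/∆. Library 3 of Gli3+/+ stood alone and the others overlapped. The log2 fold change was −0.78 (SE 0.48, edgeR adjusted p = 0.845) and 0.17 without that library (edgeR adjusted p = 0.847). For the same reason the share of Itga5 in the integrin α subunits per length, summed over the members and so without Itga7, was 48.0% in library 3 of Gli3+/+ and 16.8% to 24.4% in the other libraries. The share of Itga8 in the same sum was 29.0%, 29.1% and 18.1% in Gli3+/+ and 29.1%, 38.0% and 31.7% in Gli3∆/∆, so that the lowest Gli3∆/∆ value was nearly equal to the highest Gli3+/+ value (exact permutation p = 0.1, adjusted 0.6). The 18.1% was that of library 3 of Gli3+/+, where Itga5 made up 48.0% of the sum. Itga8 itself was counted at 66.0, 63.4 and 58.1 CPM in Gli3+/+ and 64.9, 88.2 and 62.8 CPM in Gli3∆/∆. These groups overlapped (log2 fold change 0.20, SE 0.16). Itgav (−0.09), Itga6 (−0.01) and Itga4 (−0.09) had log2 fold changes close to 0. Itga3 was at −0.30 (SE 0.18), and the collagen-binding subunits Itga1, Itga10 and Itga11 were at −0.40, −0.43 and −0.08.

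Of the integrin β subunits, Itgb8 (chr12:119158022-119238802), which pairs with Itgav and binds latent TGF-β, was higher in Gli3∆/∆. It was counted at 7.90, 8.80 and 8.33 CPM in Gli3+/+ and at 14.2, 10.8 and 11.9 CPM in Gli3∆/∆. No library overlapped (log2 fold change 0.56, SE 0.17, edgeR adjusted p = 0.433). Itgb1 had 585, 474 and 781 CPM in Gli3+/+ against 564, 580 and 554 CPM in Gli3∆/∆, within the wide Gli3+/+ range (log2 fold change −0.12, SE 0.18). It made up 87.8% ± 2.89 of the summed β subunits per length in Gli3+/+ and 85.7% ± 2.24 in Gli3∆/∆ (SD, n = 3 each, exact permutation p = 0.4). Itgb5 (0.28, SE 0.17) and Itgb4 (0.10, SE 0.20), the partner of Itga6 in hemidesmosomes, had groups that overlapped. The binding protein genes Itgb1bp1 (0.17), Itgb1bp2 (0.55, SE 0.40) and Itgb3bp (−0.02) did so too. Of the leukocyte subunits, Itgam, Itgax, Itgae, Itgb2 and Itgb2l had a mean under 1 CPM, while Itgal had a mean of 2.53 CPM. The β subunit Itgb7 had a mean of 1.24 CPM. For Itgb2l, whose sequence resembles that of Itgb2, shared reads may be split between both genes and its value is uncertain.

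Promoter sequence was available for 30 of the 46 genes, in 35 entries of RefSeq on GRCm38.p6, each 250 bases before to 50 bases after the start of transcription. Promoters are shown for Dag1, Lamb1 and Itgb8, the members higher in Gli3∆/∆ at an unadjusted p under 0.05 that have an entry, because GLI3 is a DNA-binding factor. They lie at chr9:108263909-108264208 (minus strand), chr12:31265043-31265342 (plus strand) and chr12:119238227-119238526 (minus strand). Capitals mark the GC box, GGGCGG or its complement CCGCCC, the site of SP1-type factors.
Dag1: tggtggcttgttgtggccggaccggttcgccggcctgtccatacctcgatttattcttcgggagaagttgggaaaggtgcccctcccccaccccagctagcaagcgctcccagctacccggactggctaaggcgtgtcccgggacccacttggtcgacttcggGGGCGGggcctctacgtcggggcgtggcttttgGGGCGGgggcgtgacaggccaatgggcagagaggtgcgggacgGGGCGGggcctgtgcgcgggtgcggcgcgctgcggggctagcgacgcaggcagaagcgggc
Lamb1: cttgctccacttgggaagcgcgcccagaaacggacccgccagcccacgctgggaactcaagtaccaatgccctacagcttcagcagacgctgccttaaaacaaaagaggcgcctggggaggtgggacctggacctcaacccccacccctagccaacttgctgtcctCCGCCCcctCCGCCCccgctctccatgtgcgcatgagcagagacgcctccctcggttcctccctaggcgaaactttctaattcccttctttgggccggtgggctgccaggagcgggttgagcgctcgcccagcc
Itgb8: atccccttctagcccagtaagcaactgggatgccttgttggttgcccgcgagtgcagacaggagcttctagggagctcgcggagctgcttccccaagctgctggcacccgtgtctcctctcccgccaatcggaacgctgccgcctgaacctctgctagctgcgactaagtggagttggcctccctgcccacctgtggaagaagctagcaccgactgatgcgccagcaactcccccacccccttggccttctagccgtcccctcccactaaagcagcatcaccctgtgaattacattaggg
The Dag1 promoter shown, the first of 2 listed, holds 3 GC boxes, that of Lamb1 holds 2 and that of Itgb8 holds 0. A GC box stood on either strand in 18 of the 35 member promoters, 51.4%, and in 35.7% of all 32851 promoters. The GLI core sequence GACCACCCA, searched on both strands (TGGGTGGTC on the other), was in 0 of the 35 member promoters and in 83, 0.253%, of all promoters. A match is a description of letters, and its absence in this window says nothing about binding by GLI3.

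Other genes of the adhesion machinery were read from the same fit in 5 lists. Of 92 genes, edgeR called 0 (lowest adjusted p = 0.188), with 3 higher and 11 lower at an unadjusted p under 0.05. That is 15.2% of the lists beside 7.11% of all genes, of which 3.20% were higher and 3.91% lower. The groups did not overlap in 6 genes higher and 6 lower in Gli3∆/∆, 13.0% of the lists and 13.0% of all genes. DESeq2 called 1 gene, Tln2, and limma-voom 0. Tln2, which encodes a talin that links integrin tails to actin, was counted at 468, 439 and 408 CPM in Gli3+/+ and 632, 648 and 643 CPM in Gli3∆/∆. The groups were far apart relative to their spread (log2 fold change 0.55, SE 0.12, adjusted p = 0.188 by edgeR, 0.00339 by DESeq2 and 0.0829 by limma-voom). In the dystrophin complex, to which dystroglycan belongs, 1 of 13 genes was higher and 2 were lower at an unadjusted p under 0.05. That is 23.1% of the list beside 7.11% of all genes. Groups without overlap were found in 4 of its genes on the higher and 2 on the lower side, 46.2% beside 13.0% of all genes. Sgca, the sarcoglycan of striated muscle, had 44.4, 41.2 and 42.4 against 57.6, 56.1 and 67.2 CPM, with no overlap (log2 fold change 0.50, SE 0.13, edgeR adjusted p = 0.287). The myofiber markers leaned upward as well, and their part was not tested. Of the lower genes, Sgcd, another sarcoglycan, had a mean under 1 CPM. None of 18 measured genes of dystroglycan glycosylation had an unadjusted p under 0.05.

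In the focal adhesion list, 2 of 25 measured genes were higher and 3 lower at that level, 20% beside 7.11% of all genes. Besides Tln2 these were Kank1 (log2 fold change 0.58, SE 0.22), which binds talin, and, on the lower side, Parvb (−1.04, SE 0.40), Lims2 (−0.52, SE 0.22) and Fermt3 (−1.38, SE 0.52), the kindlin of blood cells. The groups of Kank1 and Parvb overlapped. Of 18 other integrin ligands, 5 were lower and 0 higher, namely Tgfb1 (−0.61, SE 0.24), Thbs2 (−0.76, SE 0.29), Fbln2 (−0.40, SE 0.14), Tnc (−2.66, SE 0.98) and Spp1 (−3.09, SE 1.15). Over all genes, 3.91% were lower and 3.20% higher at that level. Only Fbln2 had groups that did not overlap. Single libraries decided Tnc and Spp1. Tnc, the gene of tenascin-C, was at 8.12, 1.36 and 37.6 CPM in Gli3+/+ against 3.70, 1.04 and 2.71 CPM in Gli3∆/∆, and without library 3 of Gli3+/+ its log2 fold change was −0.92. Spp1, the gene of osteopontin, was at 37.6, 2.10 and 2.18 against 3.09, 0.507 and 1.34 CPM, and without library 1 of Gli3+/+ its log2 fold change was −0.39. Parvb moved to −0.60 without library 1, and Thbs2 to −0.44 without library 3, of Gli3+/+, and Fermt3 moved to −2.18 without library 1 of Gli3∆/∆. Among 18 other anchor receptors 1 gene, the collagen receptor Ddr2, was lower at that level (−0.60, SE 0.20, edgeR adjusted p = 0.494). Its groups overlapped. That is 5.56% of the list beside 7.11% of all genes.

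Cell state was described with the authors' mean normalized count over all 12 libraries, scaled to CPM by its total over all genes, set beside the QSC mean. The ratio of both is near 0.5 for a gene counted in QSC libraries only and above 1 where ASC libraries hold more. It carries no error and no test, and it does not tell genotypes or single ASC libraries apart. Among the 36 members with a mean of at least 1 CPM the median ratio was 1.13, beside 0.978 for all genes at that level. It was above 2 in 9 members, 25%, beside 10.2% of all genes, and below 0.6 in 3, 8.33%, beside 7.35%. Those 3 were Lama3 (0.478), Megf10 (0.572) and Lama2 (0.588), and Itga8 (0.630) and Lamc1 (0.650) followed. These include the chains that lead the α and γ laminins in QSCs, and their 12-library mean was closer to the value of a gene counted in QSC libraries only than to an even level in both states.

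At the other end stood Fn1, with 40.8 CPM in QSCs and a mean of 330 CPM over 12 libraries, a ratio of 8.09. Itga3 (4.69), Itga4 (3.97), a receptor for fibronectin and VCAM1, Itgb7 (3.65), Itga9 (3.39), Lama4 (2.78) and Itgb3 (2.27) followed. Dag1 (0.730) and Hspg2 (0.780) lay between 0.5 and 1, and Lamb1 (0.965), Nid1 (0.995) and Itgb1 (1.13) were nearer to 1. Several members under 1 CPM in QSCs were well above that in the 12-library mean. Itgb2, the β subunit of leukocyte integrins, had 0.578 CPM in QSCs and 35.4 CPM over 12 libraries. Itgam, which encodes CD11b and was used as a negative gate in the sort, had 0.555 CPM and 32.9 CPM over 12 libraries. Itgb6, an epithelial partner of Itgav, had 0.300 CPM and 32.9 CPM over 12 libraries, and Itgax 0.0503 CPM and 11.5 CPM over 12 libraries. The macrophage markers had a median ratio of 53.6, and the part of other cells in the ASC libraries in these ratios was not tested.

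**Figure D5:**
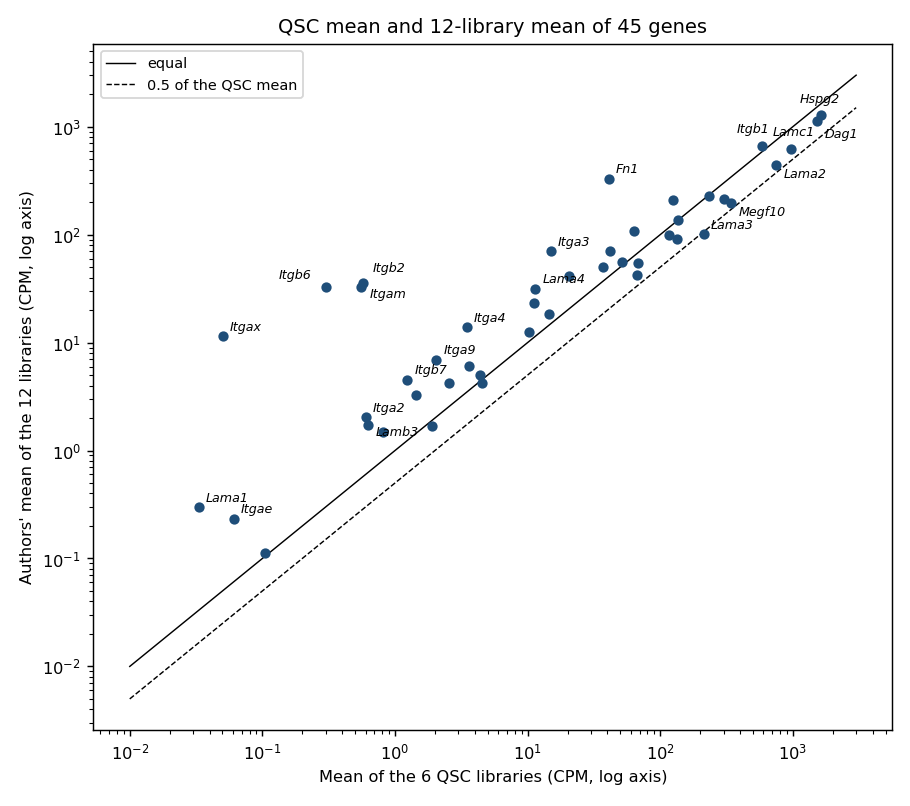
Mean of the 6 QSC libraries (CPM, log axis) against the authors' mean of the 12 libraries (CPM, log axis) for 45 members, with lines for equal values and for 0.5 of the QSC mean. Lama3, at a ratio of 0.478, lies on the lower line, and Fn1, Itgb6, Itgb2, Itgam and Itgax lie far above the upper one.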

How the data were processed

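RNA-sequencing of satellite cells was taken from the deposited tables. Per the labels and the study's methods, the authors sequenced polyadenylated RNA from 20 ng per library with a kit that keeps the strand, quantified GENCODE vM19 transcripts of GRCm38 with salmon and combined them per gene through tximport. The authors deposited estimated counts (expected counts, not normalized) of genes with at least 5 reads in at least 2 samples. Besides these, 4 deposited tables hold the authors' DESeq2 comparisons, whose fold changes and p-values were not used. From them came only the gene type and the mean signal, a normalized count that is the same in all 4 tables and was read as the authors' mean over the 12 libraries. The 6 columns of ASC libraries match no sample label and were not used, so no ASC comparison of genotypes was made.

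Estimated counts of the 6 QSC libraries (49.2% not whole) were rounded and fitted over all 25093 genes with edgeR 4.0.16 (R 4.3.3) by TMM and the quasi-likelihood test with Benjamini-Hochberg adjustment. A call needed a fold of at least 1.2 with an adjusted p below 0.05. Exact permutation tests used SciPy 1.17.1. Alternatives were DESeq2 1.42.0, limma 3.58.1 with voom and sample weights, DESeq2 size factors, 2 count filters, no minimum fold, a replicate block and leaving out each library. On simulated counts for this comparison (200 of 25093 genes changed), edgeR found 89% of the 4-fold changes, 53% of the 2-fold changes and 6 genes that had not been changed. The changed genes were drawn from well-counted genes, and the simulated spread followed the fitted trend, without an outlying library. These rates therefore do not hold for members at low counts or for changes under 2-fold. Exon lengths and positions come from GENCODE vM21, where all 46 members carry the same identifier version. Salmon shares reads of similar transcripts among genes, which affects close paralogs.

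The members, gene lists and naming rule were chosen with earlier results of these data known. Named were members with an unadjusted p under 0.05 or groups without overlap (mean of at least 1 CPM), the 3 highest per length in each role, the 3 largest rises and falls, Gli3, the sort markers, and list genes with an unadjusted p under 0.05 and at least 1 CPM. Sgcd, Lamb3 and others outside it were named after their values were seen. Itgad was not analysed here, and the results of some genes that meet the rule are not reported here.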

Additional observations from a re-analysis of the deposited data

How the results depend on the processing

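The count of members called was 0 with edgeR and under every alternative run. The count over all genes, 88, was 384 with DESeq2, 48 with at least 10 counts in every library, and 58 to 103 when 1 library was left out, the lowest without library 3 of Gli3∆/∆. It lay between 73 and 90 under the other alternatives. Members whose groups did not overlap numbered 9, and 10 to 15 when 1 library was left out, which leaves fewer values to overlap: the share of all genes then went from 13.0% to between 19.6% and 26.0%, and was 25.3% beside the 15 members without library 3 of Gli3+/+. Of the 92 genes of the adhesion lists, DESeq2 called 1, Tln2, at a log2 fold change of 0.55. Of 23 named genes, Itga5 alone turned sign, with a range of −1.11 to 0.17 when 1 library was left out and 0.17 without library 3 of Gli3+/+. The cause of these shifts was not tested. Correlations of the deviations of same-numbered libraries were −0.276, −0.0196 and −0.0642, so the numbers were not taken as pairs. Those of differently numbered libraries ran from −0.241 to 0.329, the highest between library 1 of Gli3+/+ and library 2 of Gli3∆/∆. Pairs of differently numbered libraries were not tested. With the replicate number as a block 79 genes and 0 members were called. DESeq2 size factors moved the median of all genes by 0.0063 on the log2 scale. With 3 libraries per genotype, small differences among the members were often not detectable, and the exact test cannot go below p = 0.1.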
